A study of Mus musculus with 12 samples.

Results

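The genes described are the subunits of the proteasome and the molecular chaperones of mouse cells, followed over 4 days of random differentiation of embryonic stem (ES) cells. They were chosen by name, with earlier results of these data known. The rule took every gene whose symbol starts with Psma to Psmg, Hspa, Hspb, Hspd1, Hspe1, Hsph1, Hsp90, Dnaja to Dnajc or Cct and then has its number or letter. This gave 96 genes, read by 103 probes, among 9212 genes with a name on an array of 11520 features. Of these 96, 40 encode parts or assembly factors of the proteasome and 54 encode chaperones or cochaperones of the Hsp70, Hsp90, Hsp110, small heat shock protein, DnaJ, mitochondrial chaperonin or CCT families. The other 2, Psmc3ip and Psme3ip1, matched the names but encode proteins named for binding a proteasome subunit or activator, and Psmc3ip is known as a meiotic recombination factor. The working description of the chaperones as cytosolic does not hold for all of them, since Hspa5, Hspa13, Hsp90b1, Dnajb9, Dnajc1 and Dnajc3 work in or at the endoplasmic reticulum (ER) and Hspa9, Hspe1, Dnaja3 and Dnajc19 in mitochondria.

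The study compared embryoid bodies, which are floating clumps of ES cells left to differentiate at random, with undifferentiated ES cells of the R1 line. Embryoid bodies were dissociated and plated in DMEM with fetal bovine serum for 4, 8, 15 or 21 days, and the ES cells were kept on gelatin with leukemia inhibitory factor, with no other treatment in any group. Each of the 12 arrays had 2 colours, with embryoid body (EB) RNA of 1 day in one channel and ES RNA in the other. There were 3 arrays per day. The labels give no dye swap, name no separate cultures for the arrays of a day, and describe 1 ES cell line, so p-values measure the spread between arrays only and the ES channel shows no spread of its own.

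All values are log2 ratios with the sign as deposited, and values above 0 are taken to mean more RNA in EB. That reading is only the likely one: the label protocols give Cy5 to EB RNA and Cy3 to ES RNA, whereas the sample titles and dye fields put ES RNA first and in Cy5. Under the deposited sign, genes that mark ES cells were negative at day 21 (Zfp42 averaged -2.54 and Nanog -1.69) and genes of visceral endoderm and liver were positive (Afp averaged 3.60 and Ttr 3.26). With the other reading every "higher" and "lower" below is exchanged and no p-value moves. The labels do not name the base of the logarithm, and 2 is assumed.

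The proteasome is the machine that degrades proteins tagged with ubiquitin. Its 20S core is a barrel of outer alpha rings (Psma) and inner beta rings (Psmb) that hold the cutting sites, and its 19S cap has ATPases (Psmc) that unfold the substrate and non-ATPase subunits (Psmd) that bind and remove ubiquitin. Chaperones help proteins to fold: Hsp70 proteins bind unfolded stretches with the help of DnaJ proteins, Hsp90 acts later on kinases and receptors, and the CCT ring, also called TRiC, folds actin and tubulin. Many of these genes are induced together under protein stress, the cytosolic chaperones by heat shock factor and those of the ER by the unfolded protein response.

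The value table had 0 missing values, and array medians lay between -0.0018 and 0.0106, so each array had been centred near 0. Correlations between arrays of the same day ran from 0.006 to 0.821 over all features, and they were lowest on day 4, where array 2 correlated 0.006 with array 3. Of 1448 features without a gene name, the 84 with a mean below -0.5 over the 12 arrays were used to cluster the arrays. They split the arrays into 2 sets that cross the days. The median of these 84 was -1.52 to -1.09 on day 4 array 3, day 8 arrays 2 and 3, day 15 array 3 and day 21 array 3. On the other 7 arrays it was -0.40 to -0.07. The same features defined the sets, so this gap is no separate evidence for them. What the sets stand for is not given in the sources used here. The counts of calls within each set are in the closing section.

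By day 21, 24 of the 96 genes chosen by name were called lower in EB than in ES cells and 4 were called higher. Of the 24, 10 encode proteasome parts or assembly factors, 13 encode chaperones or cochaperones, and 1 is Psmc3ip. A member was called where limma's test, adjusted by Benjamini-Hochberg over all 10689 features (averaged by gene where named), gave a p under 0.05. At day 4, 0 of 96 members were called, and 0% of all features were. At an unadjusted p under 0.05 limma had 19 members and 1081 features there, and the smallest adjusted p was 0.0957 among members and 0.0726 among all features. At day 8, 1 member was called higher and 0 lower, against 1.23% and 1.06% of all features, or 2.28% in either direction. At day 15, 1 member was called higher and 12 lower, which is 1.04% and 12.5% of members against 5.66% and 4.9% of all features, or 10.6% in either direction. At day 21, 4 members were called higher and 24 lower, which is 4.17% and 25% of members against 8.78% and 9.93% of all features, or 18.7% in either direction. The day 21 count depends on single arrays: 14 members were called without day 21 array 1 and 18 without array 2. The day 15 count was 7 without day 15 array 1 and 6 without array 2. The share of all features called in these fits is not given here, so these counts are not set against it. Of the 28 day 21 calls, 10 were kept in each of the 12 fits that leave out 1 array (Cct7, Dnajb9, Dnajc7, Hsp90aa1, Hspa4, Hspb1, Hspe1, Psmd12, Psmd4 and Psmd7), and of the 13 day 15 calls 6 were (Cct3, Cct6a, Cct7, Hspa9, Psmb3 and Psmd5).

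The signs of single arrays showed the same course. All 3 day 21 arrays were below 0 for 50 of 96 members, or 52.1%, against 26.6% of all features, and all 3 were above 0 for 14 members, or 14.6%, against 27.8%. On day 4 the balance was the other way: all 3 arrays were above 0 for 26 members, or 27.1%, against 14.8% of features, and below 0 for 9 members, or 9.38%, against 15.4%. Day 8 was near the background, with all arrays below 0 for 25 members (26%, against 21.9% of features) and above 0 for 18 (18.8%, against 22.2%). On day 15 all arrays were below 0 for 40 members (41.7%, against 23.3%) and above 0 for 16 (16.7%, against 24.4%). The median over members was -0.15, -0.12 and -0.14 on the day 21 arrays and 0.06, 0.01 and 0.08 on the day 4 arrays. All of these groups share the ES channel.

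**Figure D1:**
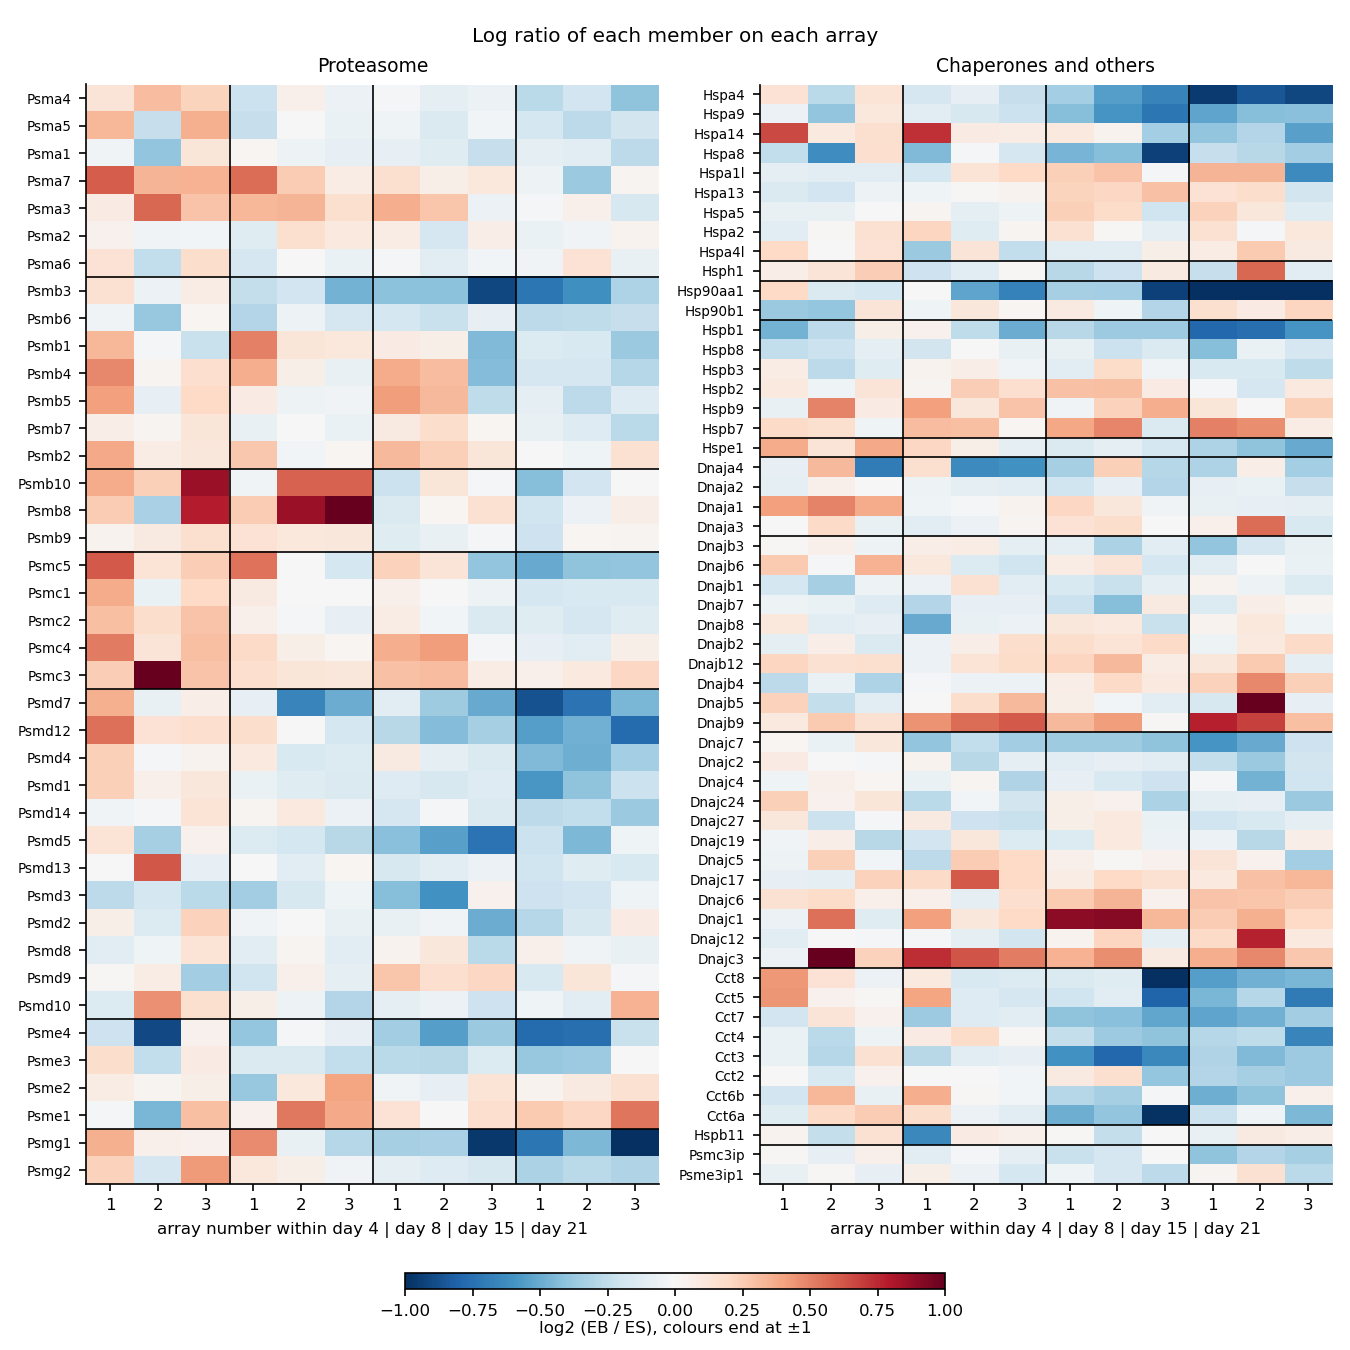
Log2 ratio of EB over ES for each of the 96 members (rows, by family and then by day 21 mean) on each of the 12 arrays (columns, by day and array number), with colours ending at -1 and 1. Red, above 0, is common in the proteasome rows on day 4, and blue, below 0, fills most rows of the 20S, 19S and CCT families on day 21.

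Because the samples are whole cultures, fewer cells of a type and less RNA per cell cannot be told apart in any of these values. Markers of cell types moved over the same days. At day 21, 8.78% of all features were called higher and 9.93% lower. Of 10 ES cell markers, 9 were called lower at day 21, with list medians of -1.39, -1.37 and -1.01 on the 3 arrays. All 7 markers of visceral endoderm and liver were called higher, with list medians of 2.96, 2.48 and 1.62, and all 6 of mesenchyme, with list medians of 1.27, 1.09 and 1.16. Of 8 measured markers of heart and skeletal muscle 5 were called higher, of 4 of macrophage and blood 1 was, and of 3 of endothelium 1 was, while 1 of 3 neuron markers was called lower. Their part in the members' changes was not tested.

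The 20S core was measured by 7 alpha and 7 beta subunits beside 3 immunoproteasome subunits. At day 21 the alpha subunits had a median of -0.13 and the beta subunits of -0.21, against 0.0031 over all features. In each family 6 of 7 lay below 0 and 1 was called lower, or 14.3%, against 9.93% of all features. At day 4, 5 of 7 alpha and 6 of 7 beta subunits had means above 0 and 0 were called. The alpha median by array was 0.13, -0.04 and 0.22 on day 4 and the beta median 0.33, -0.02 and 0.12, with array 2 lowest in both. Psmb3, a beta subunit without a cutting site, moved furthest. Its ratio was -0.72, -0.61 and -0.31 at day 21, a mean of -0.55 ± 0.21 (SD, n = 3), and limma called it lower with an adjusted p of 0.00507. It was called lower at day 15 as well, with -0.41, -0.41 and -0.91 and an adjusted p of 0.00638. On day 4 its arrays read 0.15, -0.06 and 0.07, so every array of the later days lies below the day 4 range. The day 21 call was lost without day 21 array 1 (adjusted p = 0.0615).

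Psma4, an alpha subunit, was -0.27, -0.19 and -0.40 at day 21, with a limma adjusted p of 0.019 that reached 0.105 without day 21 array 1 or array 3. Its day 4 arrays were all above 0, at 0.13, 0.31 and 0.22. Psma7, another alpha subunit, was not called against ES on any day. It read -0.05, -0.37 and 0.02 on day 21 and 0.61, 0.34 and 0.35 on day 4, and it was called between these days only. The catalytic subunits of the standard core averaged -0.16 ± 0.09 for Psmb5, -0.25 ± 0.02 for Psmb6 and -0.16 ± 0.10 for Psmb7 at day 21 (SD, n = 3 each), with limma adjusted p of 0.386, 0.0613 and 0.129. These 3 were below 0 on all 3 day 21 arrays, yet none passed the threshold. Psmb1 averaged -0.22 ± 0.13, Psma5 -0.20 ± 0.05 and Psma1 -0.15 ± 0.10, also without a call, and the remaining core subunits lay between -0.21 and 0.03 at day 21.

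**Figure D2:**
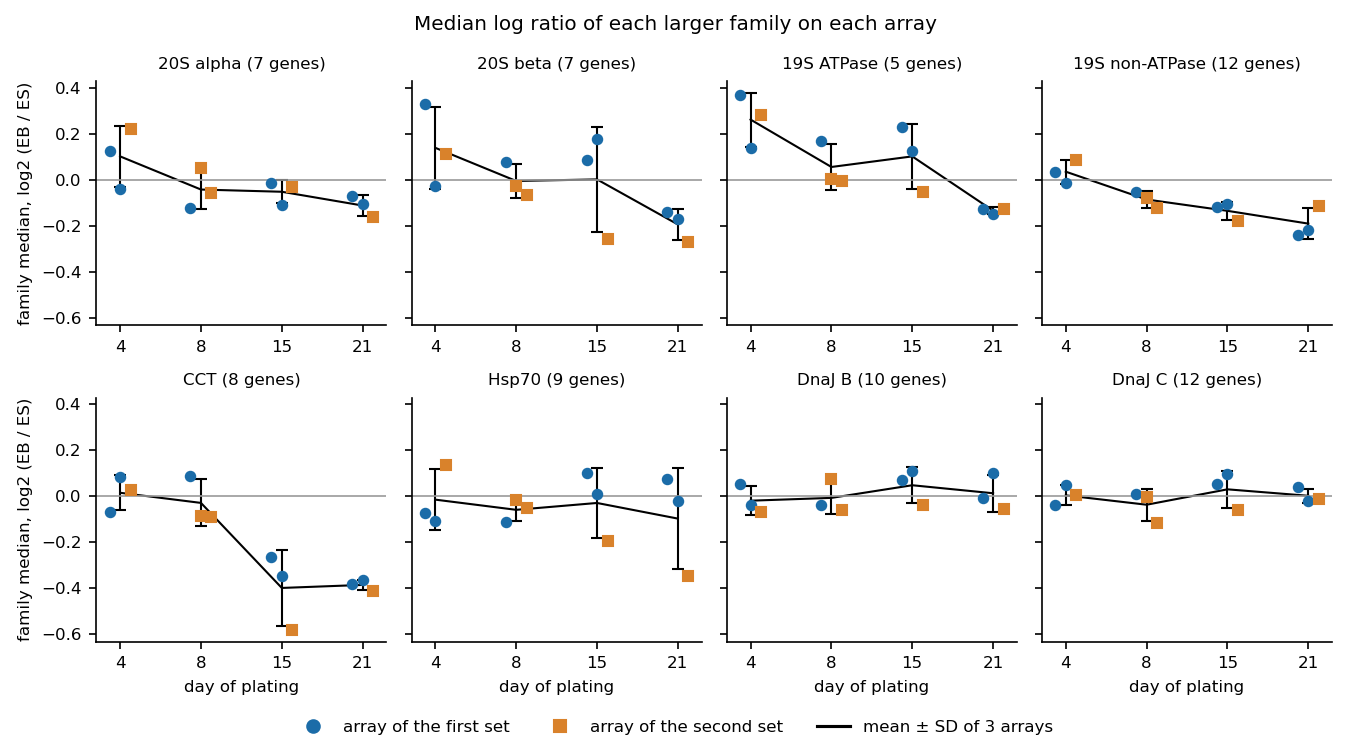
Median log2 ratio of EB over ES over the genes of each of 8 families (panels), on each array (points, by array set) and by day of plating, with the mean and SD of the 3 arrays in black. The proteasome and CCT panels end below 0 on day 21, and the DnaJ B and DnaJ C panels stay near 0 on all 4 days.

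For the 19S cap, the 12 genes named Psmd include assembly factors such as Psmd5 beside the non-ATPase subunits. Of these 12, 5 were called lower at day 21 (41.7%), and 0 of 5 ATPases were, against 9.93% of all features. The medians were -0.20 for the Psmd genes and -0.14 for the ATPases. Psmd12, a subunit of the lid, was -0.55, -0.48 and -0.77, a mean of -0.60 ± 0.15 (SD, n = 3), or 0.659 of the ES level, with a limma adjusted p of 0.00143. It was also called lower at day 15, at -0.28, -0.43 and -0.33 with an adjusted p of 0.0398, and its day 4 arrays read 0.55, 0.15 and 0.17. Its arrays thus lay wholly above 0 on day 4 and wholly below 0 on days 15 and 21. The day 15 call was kept in 7 of the 12 fits that leave out 1 array, lost among others without any 1 of the day 15 arrays.

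Psmd7 and Psmd14 form the pair of the lid in which Psmd14 removes ubiquitin chains. Psmd7 was -0.87, -0.74 and -0.46 at day 21 (adjusted p = 0.00283, limma), the lowest mean of the cap. Psmd14, averaged over 2 probes, was -0.26, -0.24 and -0.37 (adjusted p = 0.0131). Psmd4, a ubiquitin receptor, was -0.44, -0.49 and -0.34 (adjusted p = 0.00389), and Psmd1, a large scaffold subunit, was -0.58, -0.40 and -0.21 (adjusted p = 0.00406). All 4 had their 3 arrays of day 21 below 0. The call of Psmd1 was lost without day 21 array 1 (adjusted p = 0.0555), and that of Psmd14 without day 21 array 1 or array 3 (up to 0.068). Psmd5, which helps to assemble the base of the cap, was called at day 15 and not at day 21: it was -0.42, -0.54 and -0.73 on day 15 (adjusted p = 0.00509) and -0.22, -0.45 and -0.05 on day 21 (adjusted p = 0.131).

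The 5 ATPases had a median of 0.32 at day 4, with all 5 means above 0 and 0 called. The family median by array was -0.12, -0.15 and -0.12 on day 21 and 0.37, 0.14 and 0.28 on day 4, so the arrays of these days do not overlap. Psmc5 was -0.51, -0.41 and -0.40 on day 21 and 0.61, 0.14 and 0.25 on day 4, the day 21 mean missing the threshold against ES with a limma adjusted p of 0.0527. Psmc2 averaged -0.14 ± 0.02 on day 21 and 0.25 ± 0.07 on day 4, and Psmc1 averaged -0.16 ± 0.01 on day 21 and 0.17 ± 0.22 on day 4 (SD, n = 3 each), with no call against ES. Psmc3, named after its values were seen, read 0.24, 1.87 and 0.28 on day 4, so its mean of 0.80 ± 0.93 rests on array 2. The other genes named Psmd, which are Psmd2, Psmd3, Psmd8, Psmd9, Psmd10 and Psmd13, had day 21 means between -0.16 and 0.06.

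Psmg1 and Psmg2 form a dimer on which the alpha ring is built, and both were called lower at day 21. Psmg1 was -0.72, -0.45 and -1.56, a mean of -0.91 ± 0.58 (SD, n = 3), with a limma adjusted p of 0.00749. Array 3 is the lowest of the 3, and without it the mean was -0.59 and the adjusted p 0.0541. Psmg2 was -0.32, -0.27 and -0.30, with an adjusted p of 0.0455, and its call was kept in 3 of the 12 fits that leave out 1 array. On day 4 the pair read 0.35, 0.05 and 0.05 for Psmg1 and 0.23, -0.17 and 0.43 for Psmg2.

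The activators, which open the core in place of the 19S cap, went in different directions. At day 21, 1 of 4 was called lower, or 25%, against 9.93% of all features. Psme4, also known as PA200, was -0.77, -0.75 and -0.22 at day 21, with a limma adjusted p of 0.0216. The call was lost without day 21 array 1 or array 2, where the adjusted p reached 0.154. Psme3, a nuclear activator, averaged -0.25 ± 0.21 with an adjusted p of 0.0918. Psme1 and Psme2, which form the activator induced by interferon and lie near each other on chromosome 14, averaged 0.34 ± 0.18 and 0.09 ± 0.06 at day 21 (SD, n = 3 each), with adjusted p of 0.0918 and 0.609.

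The immunoproteasome subunits Psmb8, Psmb9 and Psmb10 replace the cutting subunits of the core in immune cells and under interferon. Their highest values came on days 4 and 8. Psmb8 was 0.26, 0.86 and 1.39 on day 8, a mean of 0.83 ± 0.57 (SD, n = 3) with a limma adjusted p of 0.0505, and -0.20, -0.05 and 0.06 on day 21. Psmb10 was 0.37, 0.24 and 0.86 on day 4 and -0.04, 0.59 and 0.59 on day 8, and its day 21 mean was -0.21 ± 0.21. The high values of both genes on days 4 and 8 came from day 4 array 3 and day 8 arrays 2 and 3, which are the arrays of the second set on those days. The part of the array set in these values was not tested.

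None of the 3 was called against ES on any day. Psmb9 averaged 0.10 ± 0.06 on day 4, 0.12 ± 0.02 on day 8, -0.07 ± 0.05 on day 15 and -0.05 ± 0.13 on day 21 (SD, n = 3 each). Psmb9 and Psmb8 are neighbours on chromosome 17, with Tap1 between them and Tap2 next to Psmb8. Tap1 and Tap2, which carry peptides for antigen presentation, averaged -0.18 ± 0.15 and 0.01 ± 0.05 on day 8 and were not called on any day. Of 7 measured antigen presentation genes, 1 was called higher at day 21, or 14.3%, against 8.78% of all features. It was B2m, the light chain of class I molecules, at 0.97, 0.94 and 1.19 (limma adjusted p = 0.00443).

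Of the CCT ring, 6 of 8 measured members were called lower at day 21, or 75%, against 9.93% of all features. The family median was -0.38. Of these 6 calls, 3 were kept without day 21 array 1, 2 without array 2 and 2 without array 3, and 2, Cct4 and Cct7, were kept after quantile normalization and after scaling. All 8 means lay below 0, from -0.50 to -0.24. At day 15 the count was 4 of 8, or 50%, against 4.9% of all features, with a median of -0.40. At days 4 and 8 it was 0, against 0% and 1.06% of all features, with medians of 0.0077 and -0.0011. By array the family median was -0.26, -0.35 and -0.58 on day 15 and -0.38, -0.36 and -0.41 on day 21, all below the day 4 arrays at -0.07, 0.08 and 0.03 and the day 8 arrays at 0.09, -0.08 and -0.09.

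Cct7 was called on both days. It was -0.40, -0.42 and -0.52 on day 15 (adjusted p = 0.00531, limma) and -0.53, -0.48 and -0.35 on day 21 (adjusted p = 0.00291). Cct3 was lowest on day 15, at -0.61, -0.78 and -0.65 with an adjusted p of 0.00065, and -0.30, -0.44 and -0.36 on day 21 with an adjusted p of 0.0115. Cct6a was called on day 15, at -0.49, -0.40 and -0.99 (adjusted p = 0.00702), and not on day 21, at -0.21, -0.04 and -0.45 (adjusted p = 0.198).

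Cct8 was -0.55, -0.48 and -0.46 at day 21 (adjusted p = 0.0365, limma) and Cct5 was -0.46, -0.29 and -0.71 (adjusted p = 0.0387). Both calls were lost without any 1 of the 3 day 21 arrays, with adjusted p up to 0.164 and 0.182. Cct4 was called on both days, with means of -0.34 ± 0.09 on day 15 and -0.40 ± 0.22 on day 21 (SD, n = 3 each). The day 15 call of Cct4 was lost without any 1 of the day 15 arrays, with adjusted p up to 0.191. It was also lost after quantile normalization and after scaling. The day 21 call of Cct4 was lost without day 21 array 3 (adjusted p = 0.0654). Cct2 was 0.09, 0.16 and -0.39 on day 15 and -0.29, -0.33 and -0.37 on day 21, and its adjusted p on day 21 was 0.0306, reaching 0.122 without 1 of the day 21 arrays. Cct6b, a form of Cct6a known from testis, was -0.49, -0.40 and 0.05 at day 21 and was not called. The first member of the ring is named Tcp1 and so lies outside the name rule. It was -0.21, -0.25 and -0.37 at day 21 with an adjusted p of 0.0527.

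**Figure D3:**
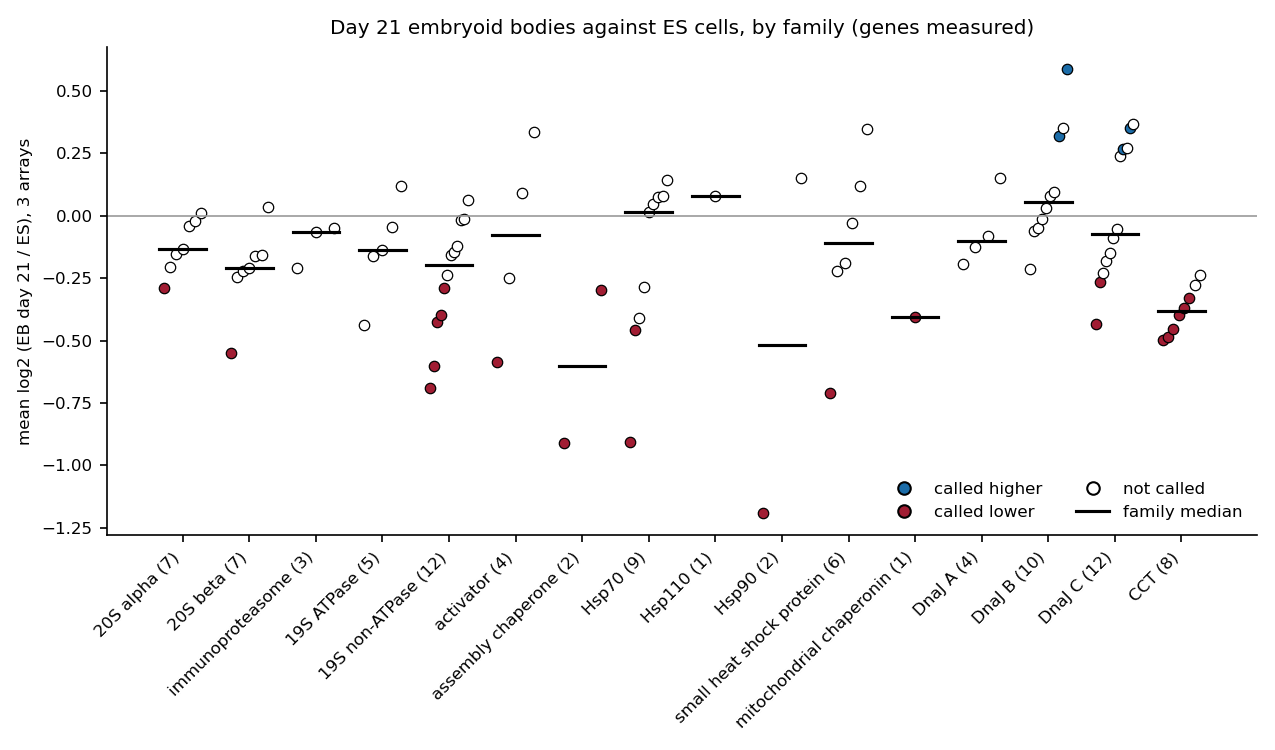
Mean log2 ratio of EB day 21 over ES over 3 arrays for every member (points) by family, with members called lower in red, called higher in blue and not called in white, and family medians as bars. The CCT points all lie below 0 with 6 of 8 called, and the 4 members called higher are in the DnaJ B and DnaJ C families.

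Hsp90 had 2 members, and they went apart. Hsp90aa1, the inducible cytosolic Hsp90, had the lowest day 21 mean of all 96 members. It was -1.35, -1.21 and -1.02, a mean of -1.19 ± 0.17 (SD, n = 3), or 0.438 of the ES level, with a limma adjusted p of 0.000201. It was -0.33, -0.34 and -0.93 on day 15 (adjusted p = 0.0324) and 0.20, -0.14 and -0.18 on day 4, and its day 8 mean was -0.40 ± 0.35. It was not called on days 4 and 8, and the day 15 call was lost in 3 of the 12 fits that leave out 1 array, where the adjusted p reached 0.167. Hsp90b1, the Hsp90 of the ER, was 0.16, 0.08 and 0.22 at day 21 with an adjusted p of 0.339.

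Hspa4, an Hsp70 relative that exchanges the nucleotide of Hsp70 proteins, had the smallest adjusted p of all members at day 21. It was -0.96, -0.85 and -0.91, a mean of -0.91 ± 0.05 (SD, n = 3), or 0.534 of the ES level, with a limma adjusted p of 6.09e-05. On day 15 it was -0.34, -0.55 and -0.67 (adjusted p = 0.00448), and on day 4 0.14, -0.27 and 0.14. Hspa9, the mitochondrial Hsp70, was called on both days, with means of -0.58 ± 0.15 on day 15 and -0.46 ± 0.06 on day 21 (SD, n = 3 each), the day 21 call being lost without day 21 array 1 (adjusted p = 0.0527). Hspa8, the constitutive cytosolic Hsp70, was called on day 15 only, at -0.46, -0.42 and -0.94 (adjusted p = 0.0162), and was -0.23, -0.28 and -0.34 on day 21 (adjusted p = 0.175). Its day 15 call was lost without any 1 of the day 15 arrays, with adjusted p up to 0.0795. Hspa14, an Hsp70 bound to ribosomes, was -0.40, -0.29 and -0.54 on day 21 with an adjusted p of 0.0629.

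The other 5 Hsp70 members, Hspa1l, Hspa2, Hspa4l, Hspa5 and Hspa13, were not called on any day, and their day 21 means lay between 0.02 and 0.14. The median of the 9 Hsp70 means at day 21 was 0.02, which is the mean of Hspa1l, at 0.34, 0.34 and -0.64. By array the family median was 0.07, -0.02 and -0.345. Of the 9 members 2 were called lower, or 22.2%, against 9.93% of all features. Hsph1, the Hsp110 member, was -0.23, 0.57 and -0.11 at day 21, so its mean of 0.08 ± 0.43 has both signs.

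Hspe1, the partner of the mitochondrial chaperonin Hsp60, was -0.31, -0.41 and -0.50 on day 21, where limma called it lower with an adjusted p of 0.00443, and 0.37, 0.13 and 0.38 on day 4. Hspb1, a small heat shock protein, was -0.78, -0.75 and -0.59 at day 21, a mean of -0.71 ± 0.10 (SD, n = 3), with an adjusted p of 0.0011. It was the 1 of 6 small heat shock proteins that was called, or 16.7%, against 9.93% of all features called lower. Hspb7, known from heart muscle, was 0.50, 0.47 and 0.07 at day 21 with an adjusted p of 0.0688. Hspb8 averaged -0.22 ± 0.18, and Hspb2, Hspb3 and Hspb9 lay between -0.19 and 0.12. Hspb11, whose name fits the family though the protein is known from cilia, was -0.08, 0.09 and 0.06.

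Promoters were read for 80 of the 96 members from RefSeq (GRCm38.p6), as the 250 bases before each start, and searched for 4 motifs on both strands. The 80 held 6 of 9 Hsp70 genes and 4 of 7 beta subunits of the standard core. Of the 2 Hsp90 genes they held Hsp90b1 alone, so Hsp90aa1 was not searched. The 2-unit heat shock element, GAANNTTC or TTCNNGAA, was in 15 of 80 members (18.8%) and in 14.5% of all genes with a promoter. Its 3-unit form, which extends the 2-unit form by NN and 1 more unit of GAA or TTC in alternation and so contains it, was in 2 members, Hspe1 and Dnajb6 (2.5%), and in 0.514% of all genes. The motif TGACNNNGC, bound by Nrf1 and Nrf2, was in 12 members (15%) and in 11.5% of all genes. A match describes the letters only. The 15 members were Cct2, Cct5, Hspb1, Hspe1 and Psmd4, called lower at day 21, Dnaja1, called lower against day 4, Dnajb4, called higher at day 21, and Dnaja4, Dnajb6, Dnajc27, Hspb3, Hsph1, Psmb5, Psmb9 and Psme3, not called. The element was thus in members of both directions. The promoters of Hspe1, with the most matches joined, of Hspb1 and Dnaja1, both lower, and of Dnajb4, higher, are shown with the 2-unit heat shock element in capitals, overlapping matches joined. That of Hspe1 is chr1:55087898-55088147 on the + strand, with 3 overlapping matches from 89 to 72 bases before the start. That of Hspb1 is chr5:135887669-135887918 on the + strand, with matches from 117 to 110 and from 97 to 90 bases before the start. That of Dnaja1 is chr4:40722218-40722467 on the + strand, with 1 match from 124 to 117 bases before the start. That of Dnajb4, the 1 of its promoters with a match, is chr3:152193846-152194095 on the - strand, with a match from 14 to 7 bases before the start.
Hspe1: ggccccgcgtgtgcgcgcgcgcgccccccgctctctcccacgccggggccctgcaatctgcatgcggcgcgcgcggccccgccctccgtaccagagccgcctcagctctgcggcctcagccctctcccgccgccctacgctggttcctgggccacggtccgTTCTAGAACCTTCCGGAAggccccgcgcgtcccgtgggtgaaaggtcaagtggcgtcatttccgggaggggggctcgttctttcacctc
Hspb1: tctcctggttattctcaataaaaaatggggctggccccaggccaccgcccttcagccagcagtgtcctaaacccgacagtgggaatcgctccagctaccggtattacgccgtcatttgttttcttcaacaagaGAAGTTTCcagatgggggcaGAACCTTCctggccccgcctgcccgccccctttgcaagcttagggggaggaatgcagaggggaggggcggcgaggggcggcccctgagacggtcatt
Dnaja1: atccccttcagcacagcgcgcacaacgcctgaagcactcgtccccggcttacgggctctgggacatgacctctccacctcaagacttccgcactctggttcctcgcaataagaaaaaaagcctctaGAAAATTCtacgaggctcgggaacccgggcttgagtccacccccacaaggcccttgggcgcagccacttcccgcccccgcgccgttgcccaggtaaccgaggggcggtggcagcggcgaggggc
Dnajb4: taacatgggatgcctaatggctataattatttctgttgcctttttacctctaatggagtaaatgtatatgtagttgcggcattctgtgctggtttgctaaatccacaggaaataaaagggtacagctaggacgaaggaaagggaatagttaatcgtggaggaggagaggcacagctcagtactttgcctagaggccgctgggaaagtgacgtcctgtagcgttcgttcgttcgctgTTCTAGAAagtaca

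The DnaJ proteins, which hand substrates to Hsp70, held all members called higher at day 21. Of 26, 4 were called higher and 2 lower, which is 15.4% and 7.69% against 8.78% and 9.93% of all features, and their median was -0.03. Of the 4 higher calls, 1, Dnajb9, was kept after quantile normalization, after scaling and without day 21 array 2. Dnajb9, an ER protein induced by the unfolded protein response, was 0.78, 0.68 and 0.30 at day 21, a mean of 0.59 ± 0.25 (SD, n = 3), or 1.5 times the ES level, with a limma adjusted p of 0.00203. It was also the 1 member called at day 8, at 0.45, 0.56 and 0.62 (adjusted p = 0.0225). Its 12 arrays were all above 0, from 0.01 to 0.78. The day 8 call was lost without day 8 array 2 or array 3, where the adjusted p reached 0.187. Dnajb4, a cytosolic DnaJ protein, was 0.23, 0.48 and 0.24 at day 21 (adjusted p = 0.0119) and -0.26, -0.07 and -0.30 at day 4, and its day 21 call was lost without day 21 array 2 (adjusted p = 0.116). It was the 1 DnaJ member whose arrays of these days lay on opposite sides of 0 with the later day above.

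Dnajc6, known as auxilin, which strips the coat from clathrin vesicles, was 0.29, 0.28 and 0.24 at day 21 (adjusted p = 0.0297, limma). Its call was lost without any 1 of the 3 day 21 arrays, with an adjusted p of up to 0.136. Dnajc12 was 0.19, 0.77 and 0.10, and its call (adjusted p = 0.0467) was kept in 2 of the 12 fits that leave out 1 array. Without day 21 array 2 its mean was 0.14. Dnajc1, an ER membrane protein, was the 1 member called higher on day 15, at 0.89, 0.91 and 0.33 (adjusted p = 0.00638), and on day 21 it was 0.26, 0.36 and 0.20 (adjusted p = 0.187). Without day 15 array 1 or array 2 its adjusted p reached 0.0872.

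Dnajc7, which binds both Hsp70 and Hsp90, was called lower on day 15 at -0.36, -0.36 and -0.41 (adjusted p = 0.0119, limma) and on day 21 at -0.59, -0.50 and -0.21 (adjusted p = 0.00324). Dnajc2, a ribosome-bound DnaJ protein, was called lower at day 21 with a mean of -0.27 ± 0.10 (SD, n = 3), but its 2 probes disagreed. One read -0.67, -0.59 and -0.47, and the other 0.20, -0.16 and 0.10. Dnaja1, a cytosolic cochaperone of Hsp70, was -0.08, -0.08 and -0.09 on day 21 and 0.41, 0.50 and 0.37 on day 4, with the smallest adjusted p of the members on day 4 (0.0957). The other 3 DnaJ A members averaged 0.15 ± 0.36 for Dnaja3, -0.12 ± 0.09 for Dnaja2 and -0.19 ± 0.22 for Dnaja4 at day 21, with no call.

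Single arrays decided other DnaJ means. Dnajb5 was -0.16, 1.29 and -0.08 at day 21 and Dnajc3, an ER protein that restrains the kinase PERK, was -0.06, 2.11 and 0.23 at day 4. Away from day 4, Dnajc3 was above 0 on every array, from 0.09 to 0.74, yet was not called on any day, with an adjusted p of 0.256 on day 8 and 0.4 on day 21. The DnaJ B and C members not named here had day 21 means between -0.23 and 0.24.

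The ER members can be set side by side with their promoters. The ER stress element, CCAAT and CCACG with 9 bases of any kind (N) between them, was found on either strand in 3 of 80 members, Dnajc3, Hspa5 and Hsp90b1 (3.75%), and in 0.13% of all genes with a promoter. None of these 3 was called on any day, and Hspa5, the Hsp70 of the ER and named after its values were seen, was 0.23, 0.12 and -0.12 at day 21. Dnajb9 and Dnajc1, the ER members that were called, have no match to these letters in the windows read. The 3 promoters are shown with the matches in capitals. That of Dnajc3 is chr14:118937682-118937931 on the + strand, with a match from 105 to 87 bases before the start. That of Hspa5 is chr2:34771840-34772089 on the + strand, with a match from 65 to 47 bases before the start. That of Hsp90b1 is chr10:86705445-86705694 on the - strand, with matches from 212 to 194 and from 107 to 89 bases before the start.
Dnajc3: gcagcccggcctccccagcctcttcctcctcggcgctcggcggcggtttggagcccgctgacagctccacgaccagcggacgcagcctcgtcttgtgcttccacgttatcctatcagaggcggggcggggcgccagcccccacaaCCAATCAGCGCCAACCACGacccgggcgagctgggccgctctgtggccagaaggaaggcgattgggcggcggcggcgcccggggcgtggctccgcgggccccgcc
Hspa5: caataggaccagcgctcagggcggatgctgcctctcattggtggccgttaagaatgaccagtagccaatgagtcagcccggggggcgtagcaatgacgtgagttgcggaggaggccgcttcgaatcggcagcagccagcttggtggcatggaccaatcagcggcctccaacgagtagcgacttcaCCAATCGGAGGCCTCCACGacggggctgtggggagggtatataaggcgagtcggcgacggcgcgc
Hsp90b1: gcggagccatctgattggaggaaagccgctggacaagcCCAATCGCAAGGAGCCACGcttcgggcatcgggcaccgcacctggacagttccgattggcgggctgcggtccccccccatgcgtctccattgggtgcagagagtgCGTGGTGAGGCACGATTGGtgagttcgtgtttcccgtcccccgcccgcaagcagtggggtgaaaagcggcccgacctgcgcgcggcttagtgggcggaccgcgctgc

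**Figure D4:**
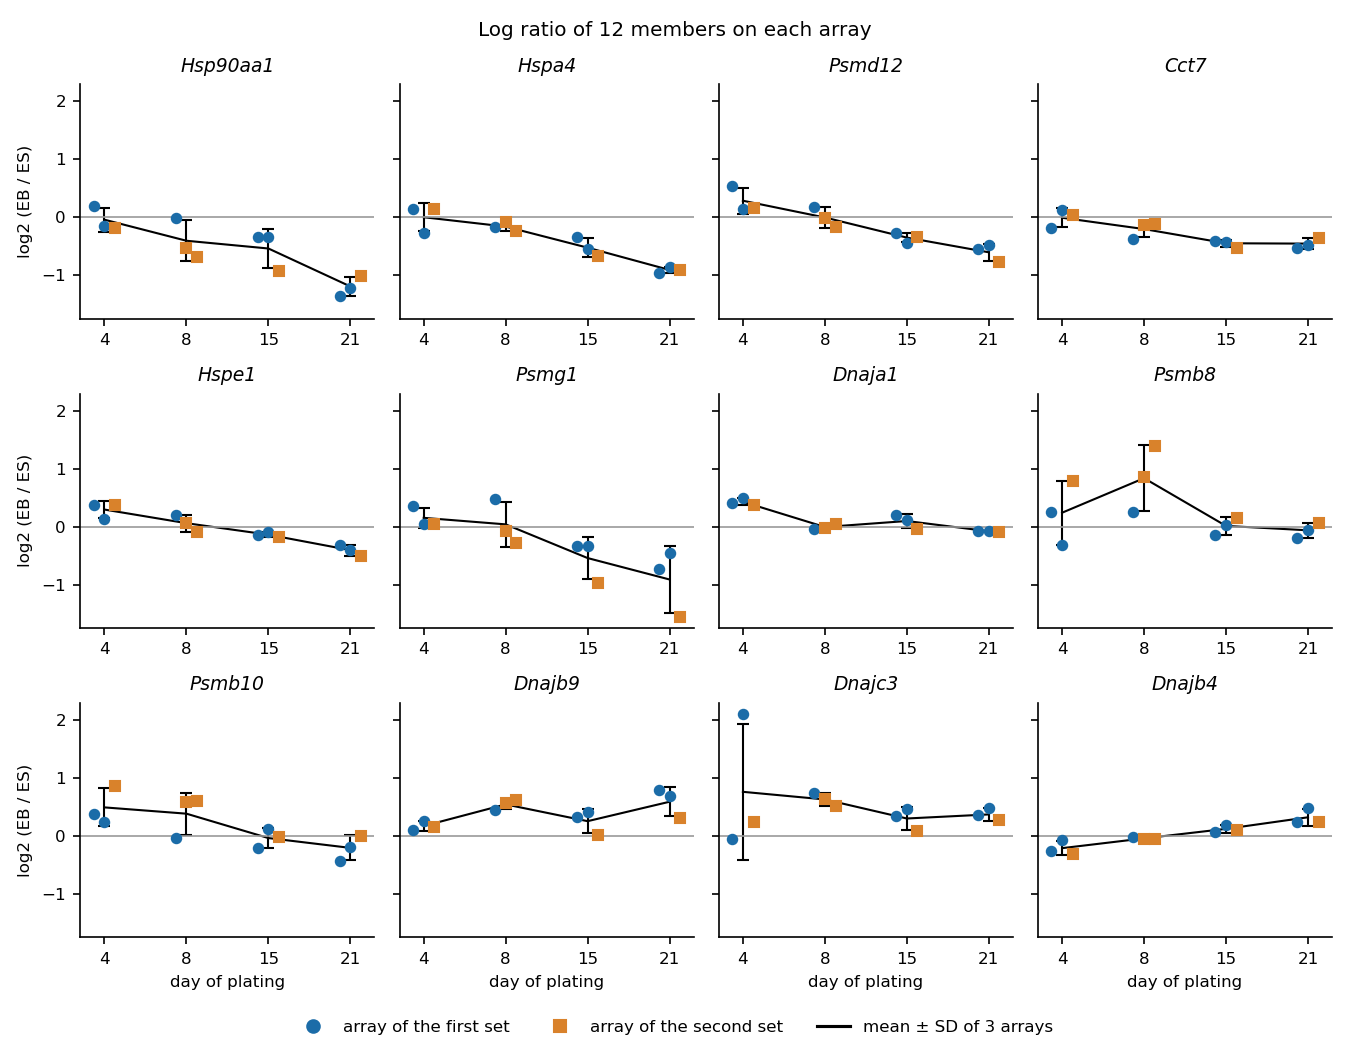
Log2 ratio of EB over ES of 12 members on each array (points, by array set) by day of plating, with the mean and SD of 3 arrays in black. Hsp90aa1 and Hspa4 reach their lowest values on day 21, Psmb8 and Psmb10 are highest on days 4 and 8, Dnajb9 stays above 0 on all arrays, and the day 4 mean of Dnajc3 rests on 1 array at 2.11.

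Comparing the days with each other uses the same ES channel on both sides, so a dye effect alike on all arrays drops out. The comparisons against ES and those between days share arrays and are not separate evidence. Between day 21 and day 4, 1 member was higher and 16 were lower, which is 1.04% and 16.7% of members against 2.62% and 3.22% of all features, or 5.84% in either direction. The day 21 arrays all lay below the day 4 arrays for 39 of 96 members, or 40.6%, against 12.2% of all features, and above them for 4, or 4.17%, against 12.6%. For the late days (15 and 21) against the early days (4 and 8), 1 was higher and 13 were lower, against 2.98% and 2.76% of all features, or 5.73% in either direction. The test for any difference between the 4 days called 6 members, against 2.9% of all features: Hspa4, Psmd12, Hspe1, Hsp90aa1, Dnaja1 and Cct3.

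Nearly all proteasome genes had a lower mean on the later of these days. Of 40, 36 had a lower mean on day 21 than on day 4 and 10 were called, and the median difference was -0.32. All 17 genes of the 20S core, immunoproteasome subunits included, and all 5 ATPases of the cap were below. Of the 54 chaperones, 34 were below and 20 above, with a median difference of -0.08, 6 called lower and 1 higher. Over all features the median difference was 0.01, with 5194 below and 5495 above, and 3.22% were called lower and 2.62% higher.

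Among the called proteasome genes, Psmg1 differed by -1.06 (adjusted p = 0.0437, limma), Psmd12 by -0.89 (0.00369), Psmd7 by -0.81 (0.0191), Psmc5 by -0.77 (0.0449), Psmb3 by -0.60 (0.0408) and Psma7 by -0.57 (0.04). The other 4 were Psmd1, Psmd4, Psma4 and Psmc2, with differences from -0.53 to -0.39. Among these proteasome calls Psmd12 alone was kept in each of the 12 fits that leave out 1 array. Psmb3 and Psmc5 were kept in 3 of them, Psmg1 and Psma7 in 4 and Psmc2 in 5. The calls of Psmg1, Psmc5, Psma7, Psmd4 and Psmd7 were also lost after quantile normalization and after scaling. Among the chaperones Hsp90aa1 differed by -1.15 (adjusted p = 0.00705), Hspa4 by -0.91 (0.00258) and Hspe1 by -0.70 (0.00477). Dnaja1 differed by -0.51 with an adjusted p of 0.0103, with a mean of -0.08 on day 21 and 0.43 on day 4. Dnajc7 and Cct7 differed by -0.46 and -0.45, and Dnajb4 by 0.53 (adjusted p = 0.0134), the 1 that was higher. The calls of Dnajc7, Cct7 and Dnajb4 were kept in 5, 4 and 10 of the 12 fits that leave out 1 array. Hspa14 and Psmb10 were lower in the late than in the early days, by -0.54 and -0.56, with adjusted p of 0.044 and 0.0396, though not between days 21 and 4. These calls of Hspa14 and Psmb10 were kept in 2 and 4 of the 12 fits that leave out 1 array. Both were lost after quantile normalization and after scaling.

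**Figure D5:**
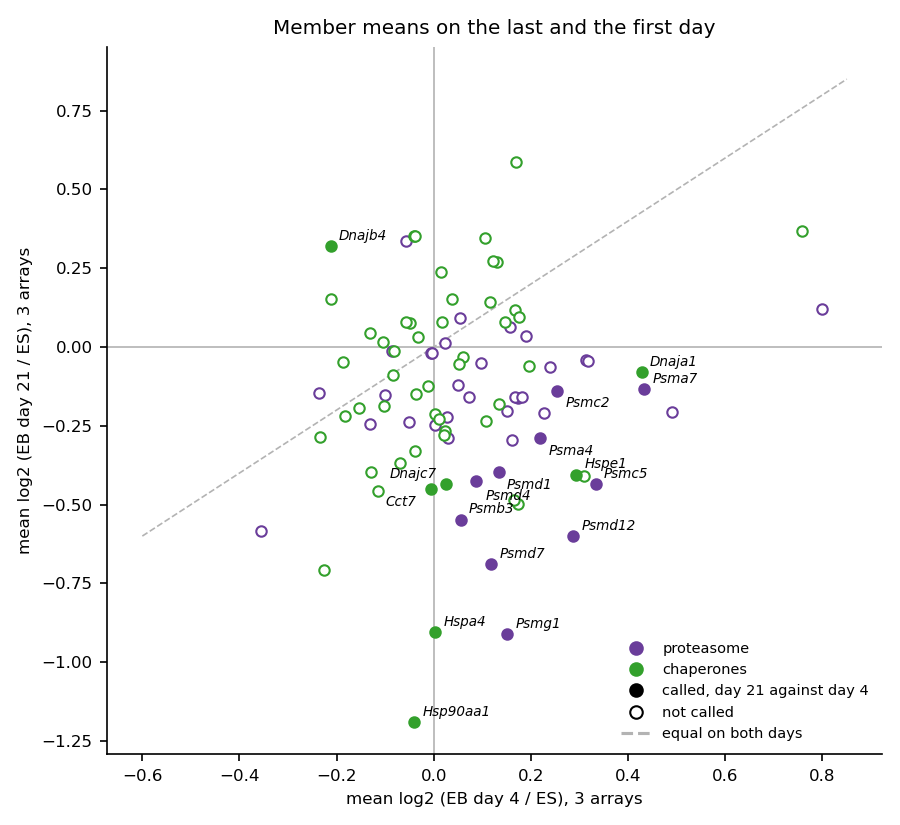
Mean log2 ratio of EB over ES on day 21 (vertical axis) and on day 4 (horizontal axis) for the 40 proteasome and 54 chaperone genes, with the 17 genes called between these days filled and named and a dashed line where both days are equal. Of the proteasome genes 36 lie below the line, and Hsp90aa1 lies lowest at -1.19.

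For 6 members more than 1 probe was averaged. The probes of Hsp90aa1 agreed in direction and not in size at day 21: one read -1.70, -1.63 and -1.62 and the other -0.99, -0.79 and -0.41, and each was called when tested alone, with limma adjusted p of 0.00016 and 0.003. Of the 2 Psmd14 probes both were called at day 21, with -0.20 and -0.38. Of the 3 Psmb9 probes 1 was called lower at day 21, at -0.28 with an adjusted p of 0.0384, while the others averaged 0.02 and 0.11. The 2 Dnajc19 probes averaged -0.25 and 0.07, neither called. Psmc3ip, the recombination factor caught by its name, was -0.40, -0.30 and -0.33 at day 21 and was called lower (adjusted p = 0.00533), and Psme3ip1 was 0.03, 0.15 and -0.27. Dnajc2 and Psmc2 are neighbours on chromosome 5.

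Genes that work with these machines were followed as 2 further lists, also chosen with earlier results of these data known. Of 27 measured cochaperones and folding partners, 10 were called lower and 1 higher at day 21, which is 37% and 3.7% against 9.93% and 8.78% of all features, and their median was -0.22. At day 15 the list was evenly split, with Stip1, Fkbp4 and Ppid lower and Bag6, Stub1 and Cryab higher. Each direction made up 11.1% of the list, against 4.9% of all features lower and 5.66% higher. Of the Hsp90 cochaperones, Stip1, which joins Hsp70 to Hsp90, was -0.84, -0.70 and -0.63, Fkbp4 was -0.75, -0.62 and -0.52, Ahsa1, which speeds the Hsp90 ATPase, was -0.67, -0.69 and -0.42, and Ppid was -0.65 on all 3 arrays. Ptges3 and Chordc1, also partners of Hsp90, averaged -0.44 ± 0.04 and -0.40 ± 0.10 (SD, n = 3 each), and Cdc37 and Ppp5c averaged -0.05 and -0.17 and were not called. Pfdn2 and Pfdn6, subunits of prefoldin, which delivers actin and tubulin to CCT, averaged -0.22 ± 0.03 and -0.42 ± 0.03. Grpel2 and Clpb, both of mitochondria, averaged -0.26 ± 0.01 and -0.74 ± 0.18.

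The 1 called higher was Cryab, a small heat shock protein of lens and muscle whose symbol lies outside the name rule and which neighbours Hspb2 on chromosome 9. It was 0.75, 0.64 and 0.35 at day 21 (adjusted p = 0.00437, limma), and Hspb2 was -0.02, -0.17 and 0.10. Muscle markers were higher on the same arrays, with list medians of 0.54, 0.35 and 0.29, and their part in the value of Cryab was not tested. Of 19 measured partners of ubiquitin and the proteasome, 0 were called lower and 1 higher at day 21, and their median was 0.01. These are 0% and 5.26%, against 9.93% and 8.78% of all features. The 1 called higher among these partners was Ubqln2, which shuttles ubiquitinated proteins to the proteasome, at 0.69, 0.99 and 0.61 (limma adjusted p = 0.016). Nfe2l1, the factor that induces proteasome genes when the proteasome is blocked, averaged -0.04 ± 0.08 at day 21, and Usp14 and Uchl5, which bind the 19S cap, averaged -0.29 ± 0.24 and -0.36 ± 0.12, with adjusted p of 0.0708 and 0.107.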

How the data were processed

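Each array compared labelled RNA of embryoid bodies with labelled RNA of ES cells in 2 colours. The values are the authors' deposited normalized log ratios, 1 per feature and array, taken here as log2 ratios, and per the labels they were normalized before deposit. The normalization method, background correction and scanner are not given in the sources used here. No intensity was used, so signal over background is unknown and the number of arrays limits the precision. Groups were taken from the sample labels.

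Gene names came from the platform annotation given with the data, with 10043 features having 1 symbol, 29 several and 1448 none. The 1477 features without 1 symbol were kept on their own, and probes of 1 gene were averaged, which gave 9212 genes and 10689 tested features. No filter and no further normalization were applied. limma (3.58.1, R 4.3.3) was fitted to all 12 arrays with day as the factor, with 8 residual and 4.35 prior degrees of freedom, and p-values were adjusted by Benjamini-Hochberg over all features. The contrasts were each day against 0 (the ES channel), day 21 against day 4, days 15 and 21 against days 4 and 8, and any difference between days. The procedure was tested on simulated data. Tables and figures were made with Python 3.11.15, pandas 2.3.3 and matplotlib 3.10.9. Promoters came from RefSeq (GRCm38.p6), for 80 of 96 members.

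Members and gene lists were chosen with earlier results of these data known. Members are named with values where they were called in any contrast, belong to a family of up to 4 measured genes, or have 1 of the 3 largest absolute day 21 means of a larger family. Hspa5, Psmc3, Dnajb6 and other members outside this rule were chosen after their values were seen.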

Additional observations from a re-analysis of the deposited data

Results flagged for a closer look

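The ratio to ES cells differed between day 21 and day 4 for 17 members by limma's contrast between the days, with Benjamini-Hochberg adjustment. Of all members 16.7% were called lower and 1.04% higher, against 3.22% and 2.62% of all features. Of the proteasome, day 21 was lower for Psmg1 by -1.06, Psmd12 by -0.89, Psmd7 by -0.81, Psmc5 by -0.77, Psmb3 by -0.60 and Psma7 by -0.57, and for Psmd1 by -0.53, Psmd4 by -0.51, Psma4 by -0.51 and Psmc2 by -0.39. Of the chaperones, Hsp90aa1 by -1.15, Hspa4 by -0.91, Hspe1 by -0.70, Dnaja1 by -0.51, Dnajc7 by -0.46 and Cct7 by -0.45 were lower on day 21, and Dnajb4 was higher by 0.53. For 6 further members every day 21 array was below 0 and every day 4 array above 0 without passing the adjusted threshold. How many of all features show this pattern was not counted. Day 21 arrays below all day 4 arrays, whatever the sign, were found for 40.6% of members and 12.2% of all features. Cct5 differed by -0.65, Hspa14 by -0.72 and Psmb10 by -0.70, with limma adjusted p of 0.0966, 0.0559 and 0.0663. Psmb4 differed by -0.43, Psmb7 by -0.23 and Dnajc24 by -0.32, with limma adjusted p of 0.256, 0.205 and 0.206. Calls of 5 of the 17, Dnaja1, Hsp90aa1, Hspa4, Hspe1 and Psmd12, were kept in each of the 12 fits that leave out 1 array.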

How the results depend on the processing

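With the deposited sign turned, the day 21 members called higher minus lower are 20 in place of -20. The counts of members called on day 4, day 8, day 15 and day 21 against ES, between days 21 and 4, between late and early days and for any difference between days were 0, 1, 13, 28, 17, 14 and 6. In the same order they were 4, 2, 10, 15, 10, 5 and 3 after quantile normalization and 1, 3, 10, 16, 8, 5 and 2 after scaling. With the array set as a term they were 2, 3, 16, 31, 21, 19 and 11, and with array weights 4, 9, 33, 35, 30, 34 and 30. With arrays of the first set only they were 0, 0, 14, 26, 15, 13 and 2, and with the second set only 0, 5, 2, 3, 0, 0 and 0, an alternative chosen after seeing the data that leaves 5 arrays. Each probe on its own gave 0, 2, 14, 29, 19, 17 and 6. Fitting the compared days alone gave 0, 0, 2, 21 and 8 for the first 5. At day 21 the split of higher and lower calls was 1 and 14 after quantile normalization and 1 and 15 after scaling, against 4 and 24. These counts, and those of the next paragraph, are given without the share of all features called in each setting. A changed count is therefore not a result about the members alone. In the main fit the shares of all features were 0%, 2.28%, 10.6%, 18.7%, 5.84%, 5.73% and 2.9%, in the order above.

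Array numbers were not taken to pair the arrays: deviations of arrays with the same number correlated from -0.14 to 0.389, and between days 15 and 21 alone did all 3 numbers exceed 0.1 (0.237, 0.151 and 0.389). With the number as a replicate block the counts were 0, 2, 14, 30, 19, 16 and 5. It ended the calls of Psmg2 at day 21 (limma adjusted p = 0.0556), of Psmb3 between days 21 and 4 (0.0584) and between late and early days (0.053), and of Cct3 (0.0563) and Dnaja1 (0.068) for any difference. Leaving out 1 array gave 0 to 0, 0 to 3, 6 to 16, 14 to 30, 6 to 21, 5 to 15 and 1 to 7. Day 21 array 1 gave the lowest count between days 21 and 4 when left out (6), followed by day 21 array 2 (7) and day 4 array 1 (7). No call of a member turned its direction in these settings, and Hsp90aa1 and Hspa4 were called at day 21 in all of them. The mean of the array medians of the 19S ATPases was 0.40 on day 4 after quantile normalization, against 0.26. On day 21 it was -0.11 after quantile normalization and after scaling, against -0.13, and that of CCT was -0.32 and -0.31, against -0.38. The causes were not tested. No dye swap, no replicate ES channel and no intensities limit all values.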
